A study of Mus musculus with 9 samples.

Results

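The 2 ends of the epididymal duct were compared by mRNA sequencing. The caput, the head of the organ, receives sperm from the testis, and the cauda, the tail, stores them. Members were all 6 libraries labelled caput or cauda out of 9 in the series, 3 per segment, and all genes passing a filter on low counts, 14168 of 24059 in the file. Every library came from epididymis of wild type C57BL/6J mice aged 9 months, with no transgene or treatment named in the labels. The caput group was the caput of these mice and the cauda group the cauda. The 3 remaining libraries, from the corpus between them, entered the estimate of the spread and are given only as a description. Nothing in the labels says if a segment's 3 libraries were taken from different animals, or if animals were pooled, so the p-values reflect only how much these libraries vary, which may be technical.

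The epididymis is lined by principal cells that secrete and absorb, with basal, clear and narrow cells between them. Each stretch of the duct releases its own mixture of small proteins into the lumen, and sperm, which make almost no RNA of their own, acquire their surface proteins, motility and ability to fertilise from this fluid. Androgens from the blood and factors in testicular fluid maintain the caput, while the cauda keeps a quiescent storage fluid and is wrapped in a thicker coat of smooth muscle.

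Gene counts totalled 3013470 to 3946335 in the caput libraries and 5095298 to 6072094 in the cauda libraries, so 1 count stood for 0.264 to 0.338 CPM in caput and 0.166 to 0.200 CPM in cauda. CPM is the usual depth-scaled count, here on library sizes scaled by the TMM method, and means are given ± SD over 3 libraries. Log2 changes are caput minus cauda, so a positive value means higher in caput, and a gene was called at a Benjamini-Hochberg adjusted p of 0.05 in edgeR's quasi-likelihood test. The Pearson correlation of log2 CPM was 0.978 to 0.989 between libraries of 1 segment and 0.747 to 0.761 between caput and cauda libraries. Segment markers followed the labels: the caput markers Lcn5, Lcn8, Lcn9, Cst8, Cst11, Rnase10, Ros1 and Cldn2 were all called higher in caput, and the cauda markers Ptgds, Crisp1, Cd52 and Defb22 were all called higher in cauda. The ribosomal RNA precursor Rn45s held 0.675% ± 0.152 of the counts in caput libraries and 0.359% ± 0.106 in cauda libraries.

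A majority of tested genes differed between the ends. Of 14168 tested genes, 7745 (54.7%) were called, 3847 (27.2%) higher in caput and 3898 (27.5%) higher in cauda. The median log2 change over all tested genes was -0.01. TMM scaling sets this centre, so the split by direction is not a result of its own: with upper quartile scaling, which moves the median by -0.0302, 3637 genes were higher in caput and 4098 in cauda. A change of at least 4-fold was found for 888 genes (6.27%) on the caput side and 757 (5.34%) on the cauda side. At least 32-fold, the counts were 226 in caput and 155 in cauda, and at least 1024-fold they were 47 and 16. In whole tissue, fewer cells of a type and less RNA per cell cannot be told apart, and this holds for every difference given here.

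The strongly changed genes held a large part of the counts at their own end. They were selected on these same counts, so a lower share at the other end follows from the selection, and the shares are a description. The 888 caput genes held 23.5% ± 0.535 of the counts in caput libraries and 1.18% ± 0.0868 in cauda libraries. For the 757 cauda genes the shares were 1.59% ± 0.0741 in caput libraries and 21.4% ± 0.582 in cauda libraries. A single gene at each end was a large share of this: Gpx5 took 4.79% ± 0.165 of the counts in caput and 0.0302% ± 0.00439 in cauda, and Crisp1 took 0.0903% ± 0.0144 in caput and 4.18% ± 0.388 in cauda.

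The corpus lay on the side of the cauda for most of the caput genes. On a log2 scale with 0.5 CPM added, the corpus mean was nearer the cauda mean than the caput mean for 370 of the 888 genes at least 4-fold higher in caput and on the far side of the cauda mean for another 418, 62 of them by at least 2-fold. It was nearer the caput mean for 70 and above it for 30. For the 757 cauda genes the split was less sided: corpus was nearer cauda for 273, beyond cauda for 262 (110 by at least 2-fold), nearer caput for 155 and beyond caput for 67. These positions are a description, since the genes were selected on the caput and cauda values.

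**Figure D1:**
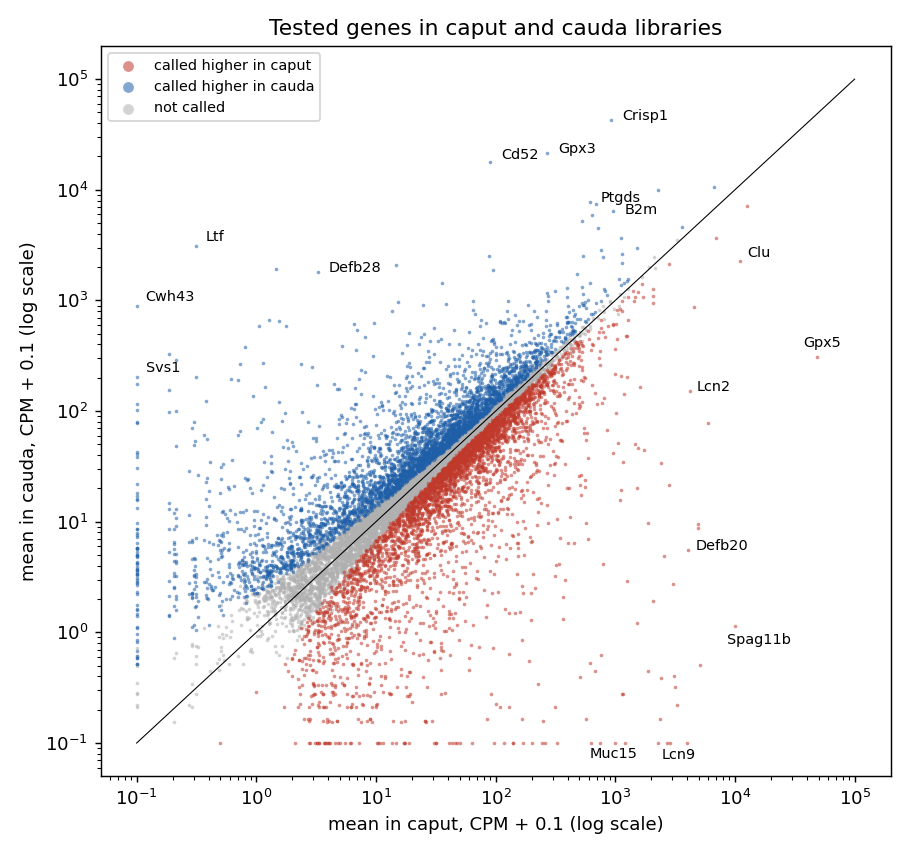
Mean CPM of each tested gene in caput (horizontal axis) and cauda (vertical axis), 0.1 added, both on log scales, n = 3 libraries per segment. Coloured points are the 3847 genes called higher in caput and the 3898 called higher in cauda, of any fold, and grey points were not called. Points along the lower and left edges are genes with few or no counts at 1 end.

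The caput genes with the widest gap in length-scaled level were secreted proteins of the lumen. By the difference of the authors' RPKM, which scales reads by gene length and library size, the first 10 were Gpx5, Lcn8, Defb20, Spag11b, Defb48, Clu, Lcn9, Lcn2, Cst11 and Defb25. They comprise a glutathione peroxidase, 3 lipocalins, 3 beta-defensins and the defensin-like Spag11b, a cystatin and a chaperone. Gpx5, a secreted glutathione peroxidase without selenocysteine (chromosome 13, 21286429 to 21292731, all coordinates mm10), had 48759.7, 46492 and 51622 CPM in caput, against 346, 313 and 258 CPM in cauda (log2 change 7.32, SE 0.16, adjusted p = 3.9e-13). The caput libraries all exceeded every cauda library by more than 2 orders of magnitude. On the RPKM scale, Gpx5 averaged 16442 ± 420.1 RPKM in caput and 97.9 ± 13.7 RPKM in cauda.

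Lcn8, an epididymal lipocalin that carries small hydrophobic ligands (chromosome 2, 25653120 to 25656217), had 5191, 4642 and 5598 CPM in caput, against 0.171, 0.400 and 0.663 CPM in cauda (log2 change 13.51, SE 0.20, adjusted p = 3.7e-14). Spag11b (chromosome 8, 19140759 to 19143010) had 10834, 9182 and 9742 CPM in caput, against 1.02, 0.801 and 1.33 CPM in cauda (log2 change 13.15, SE 0.17, adjusted p = 1.6e-14). Over the 3 cauda libraries these values stood for 7 counts of Lcn8 and 18 of Spag11b. Defb20, a beta-defensin (chromosome 2, 152477063 to 152479934), had 4084, 3879 and 4179.6 CPM in caput, against 6.32, 4.803 and 5.14 CPM in cauda (log2 change 9.53, SE 0.18, adjusted p = 1.4e-13). Defb48 (chromosome 14, 62977524 to 62984510) had 2335, 2247 and 2707 CPM in caput, against 34.7, 36.2 and 31.2 CPM in cauda (log2 change 6.16, SE 0.11, adjusted p = 9.2e-14). Neither gene overlapped between the ends.

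Clu and Lcn2 were high in caput without being near 0 in cauda. Clu encodes clusterin, a secreted chaperone that coats sperm (chromosome 14, 65968483 to 65981547), and had 10984, 11551 and 10312 CPM in caput, against 2018, 1883 and 2908 CPM in cauda (log2 change 2.27, SE 0.15, adjusted p = 3.3e-08). Lcn2, a lipocalin that binds iron-carrying siderophores (chromosome 2, 32384633 to 32388252), had 4113, 3928 and 4487 CPM in caput, against 154, 139 and 161 CPM in cauda (log2 change 4.78, SE 0.09, adjusted p = 1.5e-13). Clu showed the smallest fold among the 10 caput genes and the greatest cauda level per length of them, at 3320.3 ± 287 RPKM in caput and 657 ± 170.1 RPKM in cauda.

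The 10 cauda genes with the widest gap were Cd52, Crisp1, Gpx3, Ptgds, B2m, Spink8, Defb28, Wfdc10, Wfdc15b and Cuzd1. Cd52, a short glycopeptide anchored by lipid and passed to the sperm surface (chromosome 4, 134082448 to 134095082), had 69.5, 95.1 and 104 CPM in caput, against 16048, 18859 and 18171 CPM in cauda (log2 change -7.62, SE 0.17, adjusted p = 4.5e-13). Crisp1, of the cysteine-rich secretory family and bound by maturing sperm (chromosome 17, 40293758 to 40319207), had 821, 837 and 1113 CPM in caput, against 46163, 42479 and 38252 CPM in cauda (log2 change -5.52, SE 0.16, adjusted p = 4.8e-12). Gpx3, a secreted selenium-containing glutathione peroxidase (chromosome 11, 54902453 to 54910377), had 339.5, 260.4 and 209 CPM in caput, against 22061, 22435 and 20321 CPM in cauda (log2 change -6.33, SE 0.17, adjusted p = 2.5e-12). All 3 genes were higher in each cauda library than in any caput library, with counts at both ends.

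Ptgds, the lipocalin-type prostaglandin D synthase (chromosome 2, 25466709 to 25470046), had 603, 587 and 646 CPM in caput, against 8697, 8162 and 6599 CPM in cauda (log2 change -3.67, SE 0.12, adjusted p = 2.7e-11). B2m, the light chain of MHC class I (chromosome 2, 122147686 to 122153083), had 1039, 921 and 934 CPM in caput, against 6690.4, 6795 and 5862 CPM in cauda (log2 change -2.74, SE 0.10, adjusted p = 4.9e-11). Cuzd1, a CUB and zona pellucida domain protein (chromosome 7, 131308554 to 131322292), had 2384, 2201 and 2238 CPM in caput, against 10711, 10462 and 8857 CPM in cauda (log2 change -2.14, SE 0.10, adjusted p = 7.6e-10). These 3 genes were also well counted in caput and still did not overlap between the ends. Defb28, a beta-defensin (chromosome 2, 152518255 to 152521447), had 4.05, 3.12 and 2.37 CPM in caput, against 1669.7, 1774 and 1928 CPM in cauda (log2 change -9.15, SE 0.15, adjusted p = 4.3e-14). The WAP-domain gene Wfdc15b (chromosome 2, 164214454 to 164221660) had 81.3, 87.96 and 92.4 CPM in caput, against 2242, 2708 and 2544 CPM in cauda (log2 change -4.84, SE 0.11, adjusted p = 9.6e-13). In corpus Wfdc15b averaged 1016 ± 113 CPM and Defb28 1497 ± 91.96 CPM. The Kazal inhibitor Spink8 (log2 change -2.66, SE 0.09, adjusted p = 3.3e-11) and the WAP gene Wfdc10 (log2 change -1.9, SE 0.10, adjusted p = 2.3e-09) completed the 10.

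**Figure D2:**
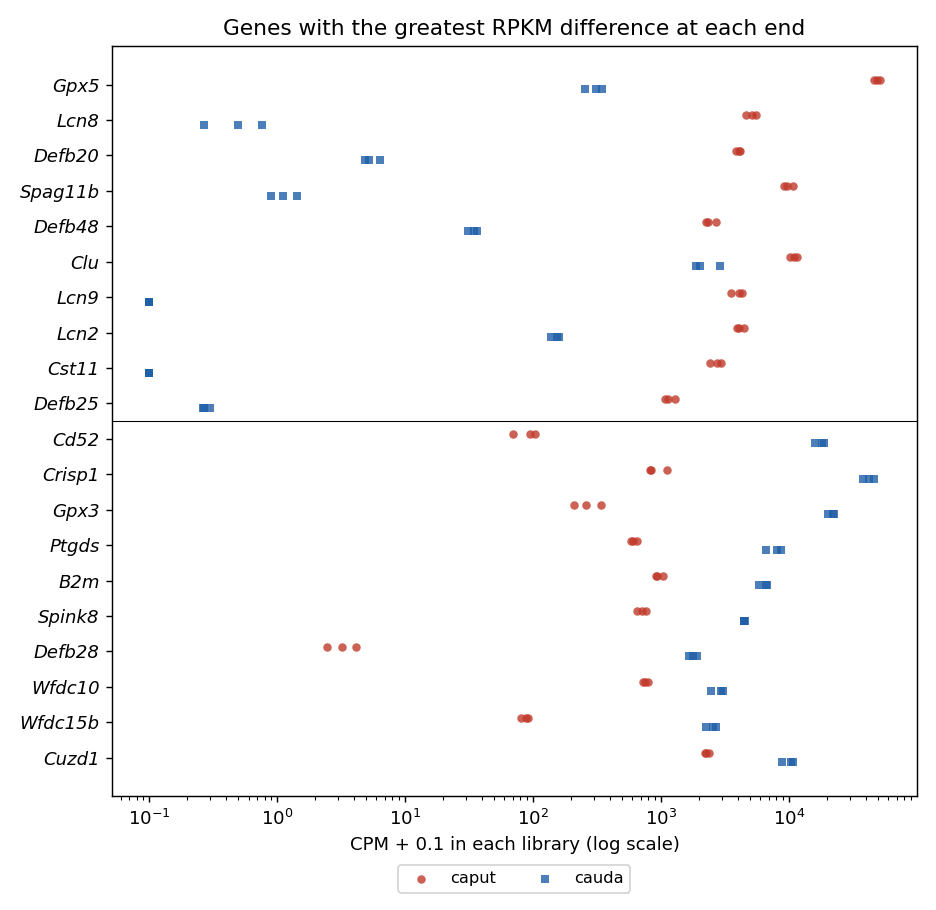
CPM in each library (horizontal axis, log scale, 0.1 added) for the 10 genes per end with the greatest RPKM difference; each point is 1 library, caput and cauda in different colours, caput genes above the line and cauda genes under it. The 3 libraries of a segment lie close together and the 2 segments do not overlap for any of the 20 genes.

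The promoters of 5 genes described here, chosen after their values were seen, are shown as examples of what stands before strongly changed genes: Gpx5, Lcn5 and Defb48, higher in caput, and Crisp1 and Gpx3, higher in cauda. Each is the 250 bases before the RefSeq start site on GRCm38.p6, printed in the gene's own direction, with TATAAA (the core promoter TATA box) and AGAACA (the repeat unit of a steroid hormone response element), on either strand, in capitals. The gene coordinates given above are GENCODE's, and for Gpx3 and Gpx5 the start sites differ. The whole Gpx3 window, and the part of the Gpx5 window next to the RefSeq start, lie inside those coordinates. Bases before the GENCODE start of Gpx3 were not searched.
Gpx5 (chr13:21292687-21292936, minus strand): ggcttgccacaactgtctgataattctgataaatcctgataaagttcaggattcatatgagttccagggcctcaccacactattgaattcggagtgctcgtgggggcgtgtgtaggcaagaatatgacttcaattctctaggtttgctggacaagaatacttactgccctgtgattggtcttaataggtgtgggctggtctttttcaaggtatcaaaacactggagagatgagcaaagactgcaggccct
Lcn5 (chr2:25657702-25657951, plus strand): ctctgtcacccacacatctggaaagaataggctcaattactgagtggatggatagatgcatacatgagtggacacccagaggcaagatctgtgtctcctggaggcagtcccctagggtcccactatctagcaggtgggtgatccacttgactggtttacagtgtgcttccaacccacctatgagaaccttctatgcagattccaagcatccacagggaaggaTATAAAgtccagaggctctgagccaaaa
Defb48 (chr14:62984511-62984760, minus strand): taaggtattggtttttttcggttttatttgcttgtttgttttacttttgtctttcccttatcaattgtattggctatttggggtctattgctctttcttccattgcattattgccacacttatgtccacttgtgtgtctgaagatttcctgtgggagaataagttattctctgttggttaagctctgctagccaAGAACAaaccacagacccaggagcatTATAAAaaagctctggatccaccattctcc
Crisp1 (chr17:40319208-40319457, minus strand): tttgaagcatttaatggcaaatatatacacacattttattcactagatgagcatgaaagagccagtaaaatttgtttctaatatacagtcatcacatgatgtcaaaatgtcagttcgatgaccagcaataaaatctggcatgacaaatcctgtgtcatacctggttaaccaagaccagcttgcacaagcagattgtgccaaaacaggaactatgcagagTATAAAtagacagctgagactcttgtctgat
Gpx3 (chr11:54902604-54902853, plus strand): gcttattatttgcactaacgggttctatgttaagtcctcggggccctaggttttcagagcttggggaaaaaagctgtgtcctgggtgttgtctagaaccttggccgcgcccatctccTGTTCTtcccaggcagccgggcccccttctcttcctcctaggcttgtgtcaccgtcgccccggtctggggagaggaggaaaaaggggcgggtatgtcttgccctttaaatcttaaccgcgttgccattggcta

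TATAAA began 28 bases before the start in Lcn5, 30 in Defb48 and 31 in Crisp1, the usual place of a TATA box, and was not in these windows of Gpx5 and Gpx3. AGAACA began 56 bases before the start in Defb48 and lay on the opposite strand in Gpx3, its leftmost base 133 before the start. Over the 10567 tested genes with a promoter in the table, 1.5% held TATAAA on the sense strand, lying wholly within 45 to 15 bases before the start. The share was 3.3% of 645 genes at least 4-fold higher in caput and 7.9% of 165 at least 32-fold higher. On the cauda side it was 5.7% of 546 and 12.8% of 109. AGAACA, on either strand, was in 11.9% of the 4-fold caput promoters, 15.8% of the 4-fold cauda promoters and 10.9% of all, and at 32-fold in 14.5% in caput and 22.9% in cauda. A core of ETS factor sites, CGGAAG on either strand, was in 9.3% of the 4-fold caput promoters, 8.6% of the 4-fold cauda promoters and 23.7% of all, and at 32-fold in 6.1% in caput and 1.8% in cauda. TTTATTG on either strand, resembling sites of distal Hox proteins, was in 2.6% of the 4-fold caput promoters, 3.7% of the 4-fold cauda promoters and 2.5% of all, and at 32-fold in 3.6% in caput and 7.3% in cauda. A match of 1 of these motifs is not counted for another. The median GC content was 57.2% in the 4-fold caput promoters, 56.4% in the 4-fold cauda promoters and 59.6% in all, and at 32-fold 54.8% in caput and 51.6% in cauda. A matching motif describes these letters and does not show that a factor binds.

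Some abundant caput genes had no or almost no reads in cauda. Where 1 end had 0 counts the fold is a bound computed against 3 counts over that segment, and where it had 1 to 3 counts the ratio is given with its counting interval, which covers counting error only. Lcn9 (chromosome 2, 25823153 to 25825537) had 4113, 3549 and 4334 CPM in caput, against 0 CPM in every cauda library, at least 22601-fold higher in caput. The cystatin Cst11 (chromosome 2, 148768609 to 148771497), a cysteine protease inhibitor, had 2758, 2444 and 2954 CPM in caput, against 0 CPM in every cauda library, at least 15373-fold higher in caput. Muc15, a mucin of the cell membrane (chromosome 2, 110721340 to 110739527), had 2333, 2253 and 2244 CPM in caput, against 0 CPM in every cauda library, at least 12797-fold higher in caput. No read of these 3 genes was counted in any cauda library.

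Lcn5, a lipocalin that binds retinoic acid (chromosome 2, 25657952 to 25661977), had 3187, 3494 and 3118 CPM in caput, against 0, 0.200 and 0.166 CPM in cauda, 27520.5-fold higher in caput (95% counting interval 7618 to 227255). Gm4846, a gene with no given name, had 2681, 2657 and 3246 CPM in caput, against 0 CPM in every cauda library, at least 16256-fold higher in caput. The likewise unnamed 9230104L09Rik averaged 2376 ± 217 CPM in caput and 0.0667 ± 0.116 CPM in cauda, 40350.2-fold higher in caput (95% counting interval 7241 to 1593820.00000). The fitted log2 change of 9230104L09Rik was 14.75, and 16.39 without cauda replicate 2, the library that held its only cauda count. Another gene without a name, 5830403L16Rik, averaged 3148 ± 484 CPM in caput and 0.223 ± 0.253 CPM in cauda (log2 change 13.54, SE 0.25, adjusted p = 1.4e-13); its fitted change was 14.67 without cauda replicate 3. No role is given here for these 3 genes.

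Some cauda genes had few or no reads in caput. The 8 with the widest ratio, at a mean of at least 10 RPKM in cauda, are given. Ltf, lactoferrin, an iron-binding antimicrobial protein (chromosome 9, 111019271 to 111042767), had 0.338, 0.312 and 0 CPM in caput, against 3269, 3016 and 3038 CPM in cauda, 15493-fold higher in cauda (95% counting interval 4289 to 127932). Cwh43, a membrane protein that acts in the lipid remodelling of GPI anchors in yeast (chromosome 5, 73406075 to 73453435), had 0 CPM in every caput library, against 900.4, 896 and 859 CPM in cauda, at least 2935-fold higher in cauda. Ly6f, a small GPI-anchored Ly6 protein (chromosome 15, 75268421 to 75272235), had 1.35, 2.18 and 0.528 CPM in caput, against 1892, 2142 and 1741 CPM in cauda (log2 change -10.49, SE 0.21, adjusted p = 2.8e-13). All 3 genes were also counted in corpus, where Ltf averaged 2806 ± 369.8 CPM, Cwh43 1069 ± 50.4 CPM and Ly6f 1134 ± 124 CPM. The fitted change of Ltf was -13.73, and -13.11 without caput replicate 3.

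The rest of these 8 cauda genes were the Kazal inhibitor Spink14, Cyp4a12a, Svs1, Pnmt and the beta-defensin Defb11. Spink14 had 0, 0 and 0.264 CPM in caput, against 219.7, 391.7 and 365 CPM in cauda, 3212-fold higher in cauda (95% counting interval 576 to 126884). Cyp4a12a, a fatty acid hydroxylase of the cytochrome P450 family, had 0.113 ± 0.195 CPM in caput and 290.3 ± 47.7 CPM in cauda, but shares 58.4% of its 36-base windows with its neighbour Cyp4a12b, so how reads were divided between them is uncertain. Pnmt, the enzyme that turns noradrenaline into adrenaline (chromosome 11, 98386450 to 98388181), had 0.338, 0.312 and 0 CPM in caput, against 189, 218 and 199 CPM in cauda, 1002-fold higher in cauda (95% counting interval 277 to 8279.7). Without 1 library the fitted changes moved: Spink14 was -11.32, and -13.57 without caput replicate 3; Cyp4a12a was -11.15, and -13.44 without caput replicate 1; Pnmt was -9.79, and -9.17 without caput replicate 3; Defb11 was -9.17, and -9.77 without caput replicate 3.

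Lipocalins were mostly caput genes. Of 12 family members in the file, 8 passed the filter. Of these, 6 (75%) were higher in caput, 1 (12.5%) in cauda and 1 was not called, against 27.2% and 27.5% of all tested genes. Their median log2 change was 12.49, or 11.44 with genes at 0 held at their bound, against -0.01 over all tested genes. Lcn8, Lcn9, Lcn5, Lcn10, Lcn6 and Obp2a were the caput genes. Lcn10 had 1009.9, 919 and 1032 CPM in caput, against 0 CPM in every cauda library, at least 5567-fold higher in caput. Lcn6 averaged 248 ± 51.8 CPM in caput and 0.0569 ± 0.0986 CPM in cauda, 4132-fold higher in caput (95% counting interval 741 to 163279), with a fitted change of 11.48, or 13.09 without cauda replicate 1. Lcn12, which binds retinoic acid, had 237 ± 5.31 CPM in caput and 244 ± 9.402 CPM in cauda and was not called (adjusted p = 0.61); Ptgds was the cauda gene.

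Beta-defensins, small cationic peptides that kill microbes and coat sperm, were divided between the ends, with no tested member left uncalled. Of 44 members in the file and 35 tested, 21 (60%) were higher in caput and 14 (40%) in cauda, 19 and 11 of them by at least 4-fold. All tested genes gave 27.2% and 27.5%, and at least 4-fold 6.27% and 5.34%. The median log2 change was 4.02, or 4.03 with genes at 0 held at their bound. Defb12 averaged 611 ± 4.62 CPM in caput and 0.426 ± 0.230 CPM in cauda. Defb30 had 754 ± 39.5 CPM in caput and 0.527 ± 0.144 CPM in cauda. Defb41 had 141 ± 6.02 CPM in caput and 0 CPM in cauda, at least 793-fold higher in caput. Other caput defensins kept some reads in cauda. Defb42 had 1537 ± 107 CPM in caput and 46.3 ± 0.923 CPM in cauda (log2 change 5.05, SE 0.09, adjusted p = 8.0e-14), and Defb18 changed by 4.55 on the log2 scale. At the other end, Defb2 averaged 24.6 ± 0.702 CPM in caput and 919 ± 63.4 CPM in cauda. Defb43 had 1.67 ± 0.578 CPM in caput and 593 ± 14.7 CPM in cauda (log2 change -8.42, SE 0.14, adjusted p = 7.7e-14). Defb1, an antimicrobial peptide of many epithelia, was the least sided of the cauda members, with 55.9 ± 3.21 CPM in caput and 113 ± 3.74 CPM in cauda (log2 change -1.01, SE 0.09, adjusted p = 5.3e-07). Defb11, with 0.961 ± 0.540 CPM in caput and 592 ± 49.6 CPM in cauda, shares 27.3% of its 36-base windows with Defb2. Defb38 had 0.113 ± 0.195 CPM in caput and 99.9 ± 7.89 CPM in cauda, with a fitted change of -9.61, or -11.9 without caput replicate 1.

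The cystatins and the ribonuclease A family gave the caput further dominant transcripts. Of 10 cystatins in the file and 6 tested, 5 (83.3%, against 27.2% of all tested genes) were higher in caput and none in cauda. That caput count was 3 when at least 10 counts were needed in 3 libraries of a segment. The median log2 change was 7.11, or 7.23 with genes at 0 held at their bound. Cst3, cystatin C, the secreted inhibitor of most tissues, had 382 ± 5.39 CPM in caput and 419 ± 19.99 CPM in cauda and was not called (adjusted p = 0.15). Cst8 had 1545, 1372 and 1671 CPM in caput, against 0.854, 1.201 and 1.33 CPM in cauda (log2 change 10.37, SE 0.16, adjusted p = 4.3e-14). Cst12 had 700.3, 714 and 810.1 CPM in caput, against 0 CPM in every cauda library, at least 4201-fold higher in caput. Of 14 ribonucleases and 9 tested, 3 (33.3%) were higher in caput, 4 (44.4%) in cauda and 2 were not called (median -0.43). Among all tested genes the shares were 27.2% and 27.5%. Rnase10, a secreted family member of the proximal duct, had 4842, 4370.2 and 5397 CPM in caput, against 7.86, 9.01 and 9.44 CPM in cauda (log2 change 9.11, SE 0.13, adjusted p = 2.5e-14). Rnase9, another family member, had 1619 ± 114 CPM in caput and 165 ± 22.95 CPM in cauda (log2 change 3.3, SE 0.11, adjusted p = 2.7e-11). Rnase13 had 314 ± 16.3 CPM in caput and 0.112 ± 0.0972 CPM in cauda, 2643-fold higher in caput (95% counting interval 731 to 21830.4). The 4 cauda members differed less, apart from Rnase1, the pancreatic type enzyme, with 0.713 ± 0.207 CPM in caput and 12.7 ± 1.104 CPM in cauda. Rnase12 had a log2 change of -0.80.

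Protease inhibitors of other families leaned to the cauda. Of 15 tested WAP-domain genes (19 in the file), which encode small inhibitors of serine proteases, 3 (20%) were higher in caput, 10 (66.7%) in cauda and 2 were not called (median -1.9). For all tested genes the shares were 27.2% and 27.5%. Eppin, a sperm surface inhibitor, was on the caput side with 193 ± 7.797 CPM in caput and 99.6 ± 14.95 CPM in cauda. Wfdc2, a marker of secretory ducts, was too, with 13.7 ± 3.801 CPM in caput and 2.57 ± 0.602 CPM in cauda. Wfdc16 had 17.2, 12.5 and 13.7 CPM in caput, against 2185, 2118 and 1932 CPM in cauda (log2 change -7.17, SE 0.12, adjusted p = 8.0e-14). Wfdc13 averaged 1.19 ± 1.07 CPM in caput and 659.7 ± 296 CPM in cauda, with a fitted change of -9.18, or -10.11 without caput replicate 1. Wfdc8 and Wfdc6b were higher in cauda by smaller folds, with log2 changes of -1.08 and -2.36, but 51.7% of the 36-base windows of Wfdc6b also occur in other genes, mainly 1 of the same family.

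Of 17 tested serpins (62 in the file), which trap proteases irreversibly, 2 (11.8%) were higher in caput, 10 (58.8%) in cauda and 5 were not called (median -0.69, or -0.68 with genes at 0 held at their bound). Among all tested genes the shares were 27.2% and 27.5%. Serpina1f, of the alpha-1-antitrypsin cluster, had 663, 762 and 655 CPM in caput, against 6979, 7959 and 7376 CPM in cauda (log2 change -3.42, SE 0.10, adjusted p = 1.1e-11). Serpine2, an inhibitor of thrombin and plasminogen activators, had 13.8, 14.3 and 17.4 CPM in caput, against 838, 1005 and 1071 CPM in cauda (log2 change -5.98, SE 0.16, adjusted p = 3.3e-12). Both were at least 8-fold higher in cauda in the fit. Serpinf2, alpha-2-antiplasmin, went the other way with 165 ± 16.2 CPM in caput and 0.0667 ± 0.116 CPM in cauda, 2801-fold higher in caput (95% counting interval 502 to 110705); its fitted change was 10.9, or 12.54 without cauda replicate 2.

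Kazal inhibitors were divided: of 9 tested (12 in the file), 3 (33.3%) were higher in caput, 5 (55.6%) in cauda and 1 was not called, against 27.2% and 27.5% of all tested genes. Spink11 averaged 1121 ± 52.6 CPM in caput and 19.3 ± 2.76 CPM in cauda, higher in caput. Spink2, an inhibitor known from testis and epididymis, had 415 ± 72.9 CPM in caput and 10.9 ± 1.28 CPM in cauda, and Spink12 a log2 change of 4.85, also higher in caput. Spink8 had 717, 769 and 649 CPM in caput, against 4479.8, 4541 and 4432 CPM in cauda. Spink10 had 89.1, 92.3 and 106 CPM in caput, against 1864, 2032 and 1769.8 CPM in cauda (log2 change -4.3, SE 0.12, adjusted p = 3.0e-12). Both were higher in every cauda library. Spink5 was high at both ends, with 1289 ± 16.9 CPM in caput and 1570.3 ± 279 CPM in cauda (log2 change -0.28, SE 0.11, adjusted p = 0.043), and its call was lost without any 1 of caput replicates 1 to 3 and cauda replicates 2 and 3.

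**Figure D3:**
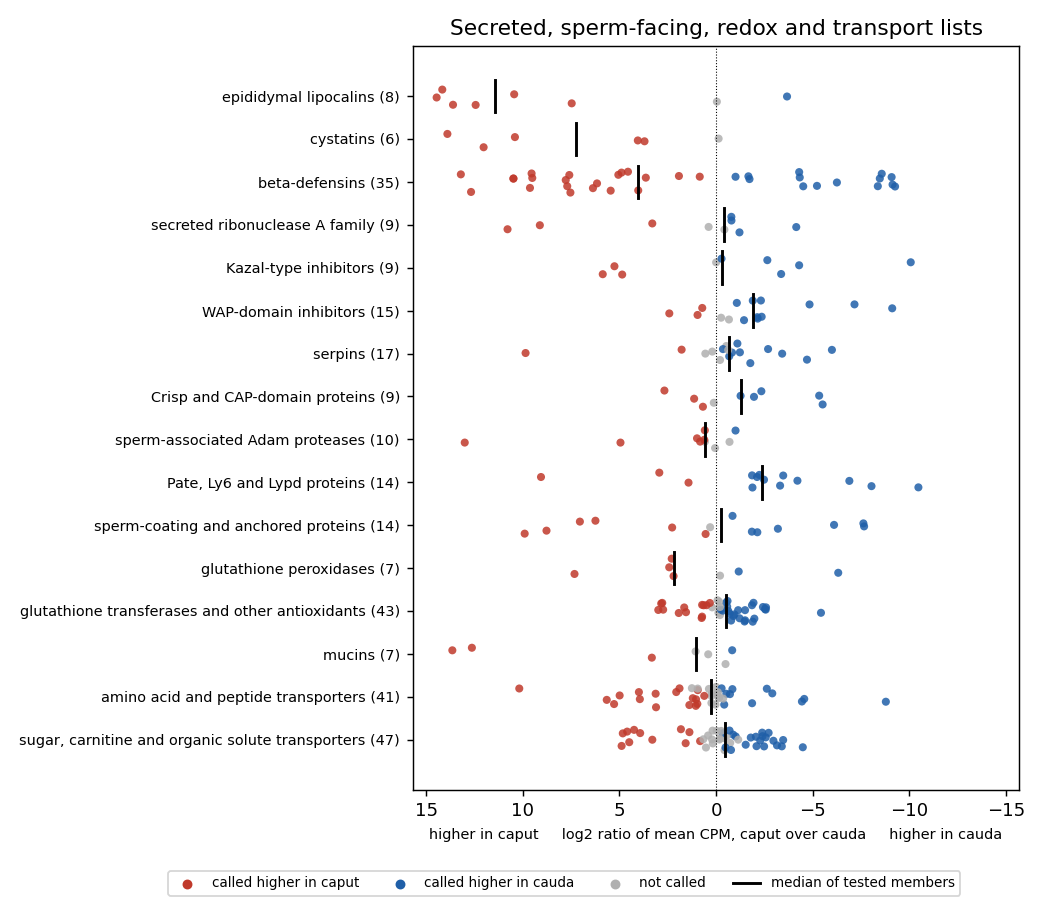
Log2 ratio of mean CPM, caput over cauda (horizontal axis, caput side on the left), for every tested member of each secreted and sperm-facing gene family listed on the vertical axis; each point is 1 gene, coloured by its call, with means held at no less than 3 counts over a segment. Lipocalins and cystatins lie mostly on the caput side, WAP genes and serpins mostly on the cauda side, and beta-defensins spread to both sides.

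Proteins that bind or reshape the sperm surface came from both ends. Among 9 tested Crisp and CAP-domain genes (12 in the file), 3 (33.3%) were higher in caput, 5 (55.6%) in cauda and 1 was not called, against 27.2% and 27.5% of all tested genes. Crisp4, an epididymal family member that binds sperm, had 239, 245 and 268 CPM in caput, against 41.3, 38.6 and 38.1 CPM in cauda (log2 change 2.67, SE 0.10, adjusted p = 5.8e-11). Crisp3, abundant in glands, had 35.8 ± 5.16 CPM in caput and 1450.1 ± 29.7 CPM in cauda on the cauda side with Crisp1. Of 14 tested Pate, Ly6 and Lypd genes (21 in the file), 3 (21.4%) were higher in caput and 11 (78.6%) in cauda (median -2.77, or -2.36 with genes at 0 held at their bound). Lypd8, which binds bacterial flagella in the colon, had 2666, 2477 and 2487 CPM in caput, against 4.95, 3.402 and 5.97 CPM in cauda (log2 change 9.03, SE 0.16, adjusted p = 1.1e-13). Ly6e had 577, 515 and 479 CPM in caput, against 4891, 5362 and 5389.8 CPM in cauda (log2 change -3.32, SE 0.10, adjusted p = 7.4e-12). Ly6a, a marker of stem cells in blood, averaged 67.5 ± 2.32 CPM in caput and 752 ± 94.2 CPM in cauda, with 28.8% of its windows in other genes, and Pate2 had a log2 change of -6.91, both higher in cauda.

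Among 14 tested genes for other proteins that coat sperm or are anchored in the duct (19 in the file), 6 (42.9%) were higher in caput and 7 (50%) in cauda. For all tested genes the shares were 27.2% and 27.5%. Mfge8, lactadherin, a milk fat globule protein that binds phosphatidylserine and sperm, had 5902, 5574 and 6324 CPM in caput, against 80.6, 80.5 and 74.4 CPM in cauda (log2 change 6.24, SE 0.10, adjusted p = 4.3e-14). Gpr64, an adhesion receptor of efferent ducts and proximal epididymis, had 2662, 2620.1 and 3232 CPM in caput, against 24.1, 20.01 and 20.4 CPM in cauda (log2 change 7.04, SE 0.23, adjusted p = 2.4e-11). Ovch2, an ovochymase-like protease, averaged 1242 ± 134 CPM in caput and 2.84 ± 0.859 CPM in cauda. The binder-of-sperm gene Bsph1 averaged 169.98 ± 9.57 CPM in caput and 0 CPM in cauda, at least 959-fold higher in caput. Its relative Bsph2 was on the cauda side, with 0.264 ± 0.457 CPM in caput and 61.05 ± 14.5 CPM in cauda and a fitted change of -7.54, or -11.16 without caput replicate 3. Ces5a, a secreted carboxylesterase, had 662, 623 and 636 CPM in caput, against 6152, 5914 and 5619 CPM in cauda (log2 change -3.2, SE 0.12, adjusted p = 9.1e-11), higher in every cauda library.

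Adam genes encode membrane metalloproteases and adhesion proteins. A chosen list of sperm-associated Adam genes, not the whole family, had 11 members in the file. Of 10 tested, 6 (60%) were higher in caput, 1 (10%) in cauda and 3 were not called, against 27.2% and 27.5% of all tested genes. Adam28 had 2346, 2130.1 and 2697 CPM in caput, against 0.342, 0.200 and 0.331 CPM in cauda (log2 change 12.85, SE 0.24, adjusted p = 1.5e-13). Adam7, passed from epididymis to sperm, was high at both ends, with 12644 ± 899 CPM in caput and 7151 ± 363 CPM in cauda (log2 change 0.82, SE 0.10, adjusted p = 1.8e-05). The 1 cauda call, Adam5, with 1.95 ± 1.06 CPM in caput and 3.94 ± 0.536 CPM in cauda, was lost with DESeq2 and without caput replicate 1 or 3 or cauda replicate 1 or 3.

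Glutathione peroxidases reduce hydrogen peroxide and lipid peroxides, and different members were called at each end. Of 7 tested (8 in the file), 4 (57.1%) were higher in caput, 2 (28.6%) in cauda and 1 was not called (median 2.2). All tested genes gave 27.2% and 27.5%. Gpx6, the closest relative of Gpx5, averaged 46.5 ± 7.42 CPM in caput and 8.67 ± 0.774 CPM in cauda. Gpx8, of the endoplasmic reticulum, had 94.6 ± 3.21 CPM in caput and 20.6 ± 0.399 CPM in cauda, and Gpx7, of the same compartment, had a log2 change of 2.28. Gpx4, the phospholipid peroxidase, had 91.98 ± 1.25 CPM in caput and 208 ± 14.9 CPM in cauda (log2 change -1.17, SE 0.08, adjusted p = 2.9e-08), but 37.6% of its 36-base windows also occur in other genes, mostly a pseudogene. Gpx1, the cytosolic enzyme, had 106 ± 12.1 CPM in caput and 122 ± 17.5 CPM in cauda (adjusted p = 0.16). On the length-scaled RPKM scale Gpx5 averaged 16442 ± 420.1 RPKM in caput and 97.9 ± 13.7 RPKM in cauda, and Gpx3 averaged 97.7 ± 26.02 RPKM in caput and 7434 ± 296 RPKM in cauda.

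Other antioxidant genes were more often higher in cauda: of 43 tested (47 in the file), 13 (30.2%) were higher in caput, 24 (55.8%) in cauda and 6 were not called (median -0.51). The caput share was near the 27.2% of all tested genes, and the cauda share was above their 27.5%. Ggt1, the gamma-glutamyl transferase that breaks down glutathione outside cells, had 239.6, 222 and 189 CPM in caput, against 25.97, 30.4 and 41.3 CPM in cauda (log2 change 2.73, SE 0.14, adjusted p = 2.8e-09). Prdx6, a peroxiredoxin, had 656 ± 21.2 CPM in caput and 398 ± 19.7 CPM in cauda, also higher in caput. On the cauda side, Gstm1, a mu-class glutathione transferase, averaged 275 ± 23.1 CPM in caput and 1086 ± 135 CPM in cauda, with 25.7% of its windows in other genes, mainly a pseudogene, and its relatives Gstm7 and Gstm5 had log2 changes of -1.86 and -2.54. Srxn1, sulfiredoxin, which restores peroxiredoxins, had 49.5 ± 6.99 CPM in caput and 294 ± 21.9 CPM in cauda. Qsox1, a disulfide-forming oxidase, averaged 126 ± 7.19 CPM in caput and 679 ± 26.6 CPM in cauda. The mitochondrial superoxide dismutase Sod2 was higher in cauda by a smaller step (log2 change -1.22), with 24.9% of its windows in other genes. Gsta2 had 0.113 ± 0.195 CPM in caput and 12.998 ± 5.08 CPM in cauda, with 57.8% of its windows in other genes and a fitted change of -6.66, or -8.95 without caput replicate 1.

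The duct lumen is kept acidic and low in bicarbonate by proton pumps, sodium-proton exchangers and carbonic anhydrases. Of 53 tested genes for these (71 in the file), 17 were higher in caput, 15 in cauda and 21 were not called (median 0.01). Those shares, 32.1% and 28.3%, were near the 27.2% and 27.5% of all tested genes, so the counts set acid and bicarbonate transport genes apart in neither direction. Slc4a4, a sodium bicarbonate cotransporter, had 107, 104 and 120.3 CPM in caput, against 7.004, 7.21 and 10.9 CPM in cauda (log2 change 3.71, SE 0.14, adjusted p = 1.1e-10). Cftr, the chloride and bicarbonate channel, had 63.1, 83.9 and 104 CPM in caput, against 0, 0.200 and 0 CPM in cauda, 1445-fold higher in caput (95% counting interval 259 to 57127); its fitted change was 9.93, or 11.57 without cauda replicate 2, which held its only cauda count. Slc9a3, the apical sodium-proton exchanger, and its scaffold Slc9a3r1 were higher in cauda together. Slc9a3 averaged 2.26 ± 0.595 CPM in caput and 33.8 ± 13.5 CPM in cauda, and Slc9a3r1 had 66.2, 66.1 and 63.3 CPM in caput, against 775, 865 and 844 CPM in cauda (log2 change -3.67, SE 0.08, adjusted p = 4.0e-13). Car4, a carbonic anhydrase anchored to the membrane, averaged 1.23 ± 0.404 CPM in caput and 28.7 ± 3.19 CPM in cauda. The catalytic subunit of the proton pump, Atp6v1a, had a log2 change of -0.18 and was not called (adjusted p = 0.17). Of 5 tested aquaporins (11 in the file), Aqp1 was higher in caput and Aqp9 and Aqp11 in cauda. Aqp9, which passes water, glycerol and urea, had 106, 152 and 148 CPM in caput, against 502, 479 and 470.4 CPM in cauda (log2 change -1.83, SE 0.11, adjusted p = 1.0e-08).

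Amino acid transporters at each end included a few with a wide difference. Of 41 tested (64 in the file), 17 were higher in caput, 11 in cauda and 13 were not called (median 0.24). Those shares, 41.5% and 26.8%, stand against 27.2% and 27.5% of all tested genes. At least 4-fold, 9 were higher in caput and 5 in cauda. Slc38a5, a glutamine and asparagine transporter, had 3225, 2929 and 3016 CPM in caput, against 4.27, 1.801 and 1.82 CPM in cauda (log2 change 10.15, SE 0.30, adjusted p = 6.9e-12). Slc7a5, the light chain of the large neutral amino acid exchanger, had 1705, 1633 and 1838 CPM in caput, against 50.1, 44.8 and 38.8 CPM in cauda (log2 change 5.28, SE 0.11, adjusted p = 2.9e-13). Its heavy chain Slc3a2 had 622, 624 and 669 CPM in caput, against 179.5, 166 and 171 CPM in cauda (log2 change 1.89, SE 0.08, adjusted p = 5.1e-10). All caput libraries exceeded all cauda libraries for these 3 genes. Slc1a5, another glutamine transporter, had 283 ± 19.3 CPM in caput and 32.4 ± 2.75 CPM in cauda. On the cauda side, Slc7a15 had 2.03, 1.56 and 0.792 CPM in caput, against 619, 622 and 694 CPM in cauda (log2 change -8.81, SE 0.21, adjusted p = 1.1e-12). Slc38a4, of the same family as Slc38a5, averaged 17.997 ± 1.71 CPM in caput and 392.2 ± 9.59 CPM in cauda, and Slc6a6, the taurine transporter, 52.4 ± 9.23 CPM in caput and 324 ± 25.6 CPM in cauda.

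Transporters of sugars, carnitine and organic solutes were more often higher in cauda: of 47 tested (84 in the file), 11 (23.4%) were higher in caput, 21 (44.7%) in cauda and 15 were not called (median -0.45, or -0.44 with genes at 0 held at their bound). Among all tested genes the shares were 27.2% and 27.5%. Slc22a5, a carnitine transporter, had 29.03, 29.9 and 23.5 CPM in caput, against 318, 336 and 262 CPM in cauda (log2 change -3.48, SE 0.12, adjusted p = 3.5e-11), with 33.9% of its windows shared, mainly with its relative Slc22a21. Slc16a1, a monocarboxylate transporter for lactate, averaged 44.7 ± 5.37 CPM in caput and 295 ± 3.002 CPM in cauda. Slco2a1, the prostaglandin transporter, had 41.2 ± 0.647 CPM in caput and 218 ± 27.6 CPM in cauda. On the caput side, Slc16a10, which carries aromatic amino acids, had 507, 508 and 539 CPM in caput, against 15.4, 17.8 and 19.4 CPM in cauda (log2 change 4.88, SE 0.10, adjusted p = 2.6e-13). The inositol transporter Slc5a3 was higher in caput by a smaller step (log2 change 0.83).

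Of 25 tested claudin and tight junction genes (37 in the file), 8 were higher in caput, 8 in cauda and 9 were not called. The share at each end, 32%, was near the 27.2% and 27.5% of all tested genes. Cldn2, a claudin that forms cation pores, had 1123, 1018 and 1125 CPM in caput, against 15.2, 13.4 and 18.1 CPM in cauda (log2 change 6.12, SE 0.17, adjusted p = 3.4e-12). Cldn10 averaged 136 ± 10.7 CPM in caput and 11.7 ± 1.82 CPM in cauda. Cldn8 and Cldn3, claudins of tight epithelia, were higher in cauda, with log2 changes of -2.24 and -1.04. Cldn8 had 96.5, 87.6 and 88.9 CPM in caput, against 416, 453 and 421 CPM in cauda, so its libraries did not overlap between the ends. Of 7 tested mucin genes (11 in the file), 3 (42.9%) were higher in caput and 1 (14.3%) in cauda. Muc5b, a secreted gel-forming mucin, had 804, 1369 and 1238 CPM in caput, against 0.171, 0.200 and 0.166 CPM in cauda, 6479-fold higher in caput (95% counting interval 2216 to 31421).

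Ros1 and several targets of ERK signalling were higher in caput. ROS1 is a receptor tyrosine kinase needed for the initial segment, the most proximal stretch of the caput, where ERK kinases are active. Of 23 tested genes of this pathway (24 in the file), 10 (43.5%) were higher in caput, 4 (17.4%) in cauda and 9 were not called (median 0.10). Over all tested genes the shares were 27.2% and 27.5%. Ros1 (chromosome 10, 52045721 to 52195244) had 286, 281 and 393 CPM in caput, against 3.76, 3.402 and 4.64 CPM in cauda (log2 change 6.33, SE 0.18, adjusted p = 4.1e-12). The ETS factors Etv5, Etv4 and Etv1, induced through ERK, were all higher in caput. Etv5 had 477, 479.7 and 534 CPM in caput, against 30.1, 22.8 and 25.02 CPM in cauda (log2 change 4.25, SE 0.10, adjusted p = 1.0e-12), with 28.7% of its 36-base windows in other genes. Etv4 averaged 106 ± 26.1 CPM in caput and 2.23 ± 0.729 CPM in cauda, and Etv1 had a log2 change of 2.39. Dusp6, an ERK phosphatase, had 211, 193 and 201 CPM in caput, against 43.6, 36.6 and 38.9 CPM in cauda (log2 change 2.34, SE 0.09, adjusted p = 1.3e-10). On the cauda side were the receptor Fgfr2, with 70.7 ± 5.67 CPM in caput and 199 ± 28.8 CPM in cauda, and the kinase Src, with a log2 change of -0.96. Fgf9 was there too, at low levels of 1.75 ± 0.689 CPM in caput and 8.02 ± 0.955 CPM in cauda (log2 change -2.14, SE 0.28, adjusted p = 2.7e-05).

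Of 16 tested genes that make or sense steroid hormones (23 in the file), 7 were higher in caput, 4 in cauda and 5 were not called (median 0.16). Those shares, 43.8% and 25%, stand against 27.2% and 27.5% of all tested genes. Srd5a2 and Srd5a1, the 5-alpha reductases that turn testosterone into dihydrotestosterone, were both higher in caput. Srd5a2 had 73.6, 78.3 and 79.2 CPM in caput, against 18.96, 14.8 and 15.6 CPM in cauda (log2 change 2.22, SE 0.12, adjusted p = 3.3e-09), and Srd5a1 a log2 change of 1.7. Esr1, the oestrogen receptor alpha, had 45.6 ± 1.64 CPM in caput and 21.2 ± 10.5 CPM in cauda (log2 change 1.09, SE 0.27, adjusted p = 0.0041). Hsd11b1, which reactivates glucocorticoids, was higher in cauda, with 3.63 ± 1.61 CPM in caput and 35.5 ± 5.74 CPM in cauda. So was Sult1e1, the oestrogen sulfotransferase, with 1.03 ± 0.572 CPM in caput and 21.6 ± 1.11 CPM in cauda.

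Of 17 tested retinoid genes (24 in the file), 2 (11.8%) were higher in caput, 6 (35.3%) in cauda and 9 were not called (median -0.30). Over all tested genes the shares were 27.2% and 27.5%. The caput count was 4 without caput replicate 3 or with no filter on low counts. Aldh1a1, which makes retinoic acid, had 1072, 1116 and 1205 CPM in caput, against 2563, 2728 and 2667 CPM in cauda (log2 change -1.23, SE 0.08, adjusted p = 4.0e-08). Crabp2, which carries it to its receptors, had 0.200 ± 0.177 CPM in caput and 79.5 ± 16.4 CPM in cauda, 391.9-fold higher in cauda (95% counting interval 108 to 3239).

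Wnt genes leaned to the cauda. Of 37 tested ligands, receptors and modulators (57 in the file), 5 (13.5%) were higher in caput, 20 (54.1%) in cauda and 12 were not called (median -0.60). For all tested genes the shares were 27.2% and 27.5%. Among ligands, Wnt4 had 18.6, 19.3 and 15.3 CPM in caput, against 142, 157 and 188 CPM in cauda (log2 change -3.2, SE 0.15, adjusted p = 7.7e-10). Wnt7b had 25.7, 22.5 and 21.9 CPM in caput, against 119, 135 and 151 CPM in cauda (log2 change -2.53, SE 0.20, adjusted p = 1.5e-07). Both ligands were higher in every cauda library. The secreted modulators Sfrp2 and Rspo3 had log2 changes of -3.06 and -2.59. The receptor Lgr4, needed for a normal epididymis in mice, averaged 71.7 ± 6.73 CPM in caput and 147 ± 6.31 CPM in cauda. Axin2, a widely used target of the pathway, had 87.6 ± 8.004 CPM in caput and 152 ± 15.3 CPM in cauda (log2 change -0.80, SE 0.10, adjusted p = 1.4e-05). The caput members included the nuclear factors Tcf7 and Lef1, with 183 ± 10.3 CPM in caput and 19.2 ± 0.752 CPM in cauda for Tcf7 and a log2 change of 1.97 for Lef1.

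Hox genes, which set position along the body axis in the order of their paralog number, were mostly divided by that number. Of 21 tested genes of paralogs 1 to 8 (23 in the file), 13 (61.9%) were higher in caput, 3 (14.3%) in cauda and 5 were not called, with a median log2 change of 0.59. Among all tested genes the shares were 27.2% and 27.5%. The 3 cauda calls were reduced to 1 without caput replicate 2 or 3, or without cauda replicate 1 or 2. Of 8 tested genes of paralogs 9 to 13 (16 in the file), 0 were higher in caput, 5 (62.5%) in cauda and 3 were not called, with a median of -2.36.

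Hoxc8 had 64.1, 63.3 and 42.2 CPM in caput, against 19.1, 11.01 and 7.79 CPM in cauda (log2 change 2.15, SE 0.28, adjusted p = 2.2e-05). Hoxd4 had 344, 299 and 275 CPM in caput, against 114, 114 and 126 CPM in cauda (log2 change 1.37, SE 0.09, adjusted p = 1.9e-08), but 48.4% of its windows also occur in other genes, mainly the same-strand Gm28230. Both were higher in every caput library. Hoxa10, which in mice is needed for the identity of the distal duct, had 6.08, 6.55 and 3.69 CPM in caput, against 65.1, 62.04 and 63.96 CPM in cauda (log2 change -3.57, SE 0.24, adjusted p = 3.6e-08). Hoxd10 averaged 2.27 ± 0.676 CPM in caput and 21.7 ± 4.301 CPM in cauda, and Hoxc10 was counted in cauda alone, at least 27.9-fold higher in cauda. Hoxa11 had 0.425 ± 0.525 CPM in caput and 12.4 ± 2.19 CPM in cauda, with a fitted change of -4.85, or -6.2 without caput replicate 1; a gene on the opposite strand overlaps its exons, as for part of Hoxb2. Hoxb9 and Hoxd9, of paralog 9, had log2 changes of -0.13 and 0.12 and were not called (adjusted p = 0.37 and 0.34).

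**Figure D4:**
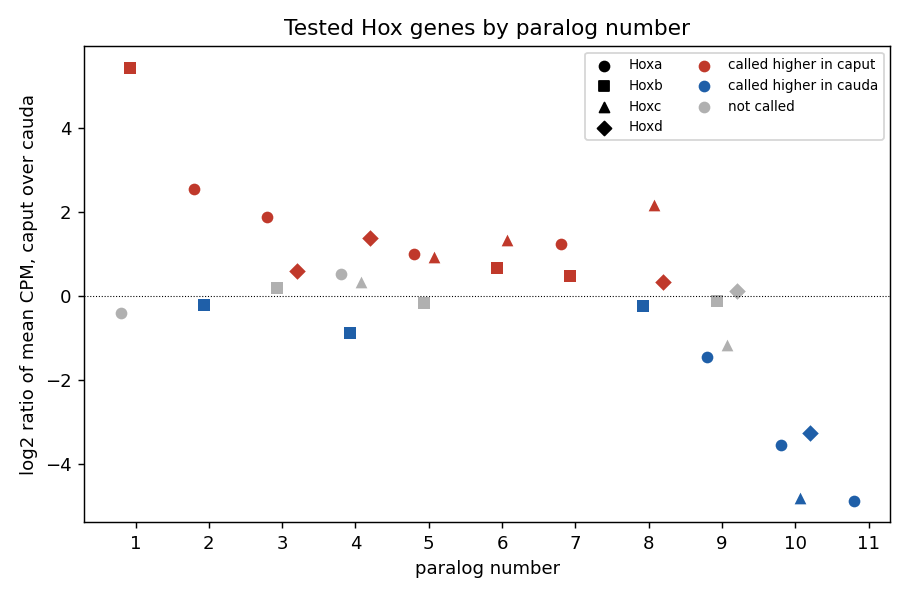
Log2 ratio of mean CPM, caput over cauda (vertical axis), of each tested Hox gene against its paralog number (horizontal axis); each point is 1 gene, coloured by its call, with means held at no less than 3 counts over a segment. Genes of paralogs 1 to 8 lie mostly above 0 and all called genes of paralogs 9 to 13 lie under 0.

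Other developmental transcription factors followed no single direction. Of 51 tested (92 in the file), 15 were higher in caput, 21 in cauda and 15 were not called (median -0.16). Those shares, 29.4% and 41.2%, stand against 27.2% and 27.5% of all tested genes. Runx1, a factor best known from blood stem cells, had 141, 131 and 186 CPM in caput, against 5.47, 4.403 and 4.47 CPM in cauda (log2 change 4.99, SE 0.19, adjusted p = 9.6e-11). Sox9 averaged 185 ± 12.7 CPM in caput and 40.03 ± 7.57 CPM in cauda. Gata2 had 19.9, 21.2 and 11.9 CPM in caput, against 187, 203 and 206 CPM in cauda (log2 change -3.51, SE 0.28, adjusted p = 2.3e-07), higher in each cauda library than in any caput library. Pax2, a factor of the developing urogenital ducts, averaged 82.4 ± 8.81 CPM in caput and 312 ± 17.6 CPM in cauda, and Lhx6 and Irx1 had log2 changes of -4.82 and -2.87. Pax8, the relative of Pax2, differed less and in the other direction, with 283 ± 11.7 CPM in caput and 223 ± 15.3 CPM in cauda.

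Genes of the secretory pathway were more often higher in caput. Of 31 tested (32 in the file), 14 (45.2%) were higher in caput, 2 (6.5%) in cauda and 15 were not called, with a median log2 change of 0.17. All tested genes gave 27.2% and 27.5%. Hsp90b1, a chaperone of the endoplasmic reticulum, had 2191, 1940.4 and 2095 CPM in caput, against 912, 939 and 999.98 CPM in cauda (log2 change 1.13, SE 0.11, adjusted p = 1.1e-06). Ssr3, part of the translocon-associated complex, averaged 1034 ± 14.8 CPM in caput and 444 ± 21.3 CPM in cauda. Hspa5, the main chaperone of the compartment, had 2157 ± 106 CPM in caput and 1969.8 ± 39.97 CPM in cauda (adjusted p = 0.23) and was not called. The stress effector Ddit3 was not called either, with 15.8 ± 0.692 CPM in caput and 20.1 ± 7.32 CPM in cauda (adjusted p = 0.41).

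Cholesterol synthesis genes, by contrast, were mostly higher in cauda by small folds: of 21 tested, 3 (14.3%) were higher in caput, 12 (57.1%) in cauda and 6 were not called (median -0.38). For all tested genes the shares were 27.2% and 27.5%. Cyp51, a sterol demethylase, had 158 ± 13.2 CPM in caput and 312 ± 16.1 CPM in cauda, and Fdps, which makes farnesyl diphosphate, a log2 change of -1.21, with 27.6% of its windows in other genes.

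Host defence genes other than defensins were called more often in cauda than in caput, and many were not called. Of 9 tested antimicrobial genes (24 in the file), 2 (Lcn2 and Lypd8) were higher in caput and 6 in cauda, a count that was 3 without cauda replicate 1. The caput and cauda shares, 22.2% and 66.7%, are read against 27.2% and 27.5% of all tested genes. S100a8, a calcium-binding protein of neutrophils and stressed epithelia, had 0.113 ± 0.195 CPM in caput and 48.8 ± 24.7 CPM in cauda and a fitted change of -8.57, or -10.87 without caput replicate 1. Of 36 tested antigen presentation genes (51 in the file), 5 (13.9%) were higher in caput, 13 (36.1%) in cauda and 18 were not called (median -0.24). The caput count was 3 with upper quartile scaling, with DESeq2, and without caput replicate 1 or cauda replicate 3. The class I heavy chain H2-K1 had 424, 408 and 348 CPM in caput, against 625, 656 and 584 CPM in cauda (log2 change -0.66, SE 0.10, adjusted p = 6.6e-05), a smaller difference than its light chain B2m. Class II members were split, with log2 changes of -1.05 for H2-Aa, a chain that presents peptides, and 4.48 for H2-DMb2, which loads them. H2-DMb2 shares 33.4% of its windows, mainly with H2-DMb1.

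Of 27 tested interferon response genes, 2 (7.4%) were higher in caput, 13 (48.1%) in cauda and 12 were not called (median -0.88). All tested genes gave 27.2% and 27.5%. Ifit1 averaged 6.92 ± 2.201 CPM in caput and 20.2 ± 3.01 CPM in cauda, and Oasl2 had a log2 change of -1.32, both higher in cauda. Of 18 tested complement genes (23 in the file), 7 (38.9%) were higher in cauda and 1 (5.6%) in caput. The 7 included C7, of the terminal pathway, with 28.8 ± 9.65 CPM in caput and 105 ± 30.5 CPM in cauda, and Serping1, the C1 inhibitor, with a log2 change of -1.24. The 1 caput call, C1qa (log2 change 0.42, SE 0.15, adjusted p = 0.032), was lost without caput replicate 1 or 2 or cauda replicate 2 or 3.

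Immediate early and stress genes, which respond within minutes to growth factors or to handling of tissue, were mostly higher in cauda. Of 22 tested (24 in the file), 1 (4.5%) was higher in caput, 18 (81.8%) in cauda and 3 were not called (median -1.59), against 27.2% and 27.5% of all tested genes. The caput count was 2 without cauda replicate 1, with limma voom, with a replicate block or with no filter on low counts. Fos had 44.2, 29.6 and 30.1 CPM in caput, against 679, 370.1 and 294 CPM in cauda (log2 change -3.7, SE 0.30, adjusted p = 2.6e-07). Egr1 had 131, 103 and 93.4 CPM in caput, against 932, 473 and 506 CPM in cauda (log2 change -2.55, SE 0.25, adjusted p = 1.7e-06). Atf3 had 7.09, 7.49 and 7.65 CPM in caput, against 225, 131 and 72.9 CPM in cauda (log2 change -4.26, SE 0.50, adjusted p = 8.3e-06). Each cauda library exceeded each caput library for these 3 genes. Egr2, of the same zinc finger family as Egr1, was the 1 higher in caput, with 593, 549.9 and 578 CPM in caput, against 68.3, 46.8 and 48.9 CPM in cauda (log2 change 3.39, SE 0.16, adjusted p = 1.0e-09). The summed level of the list was 1666 to 1837 CPM in caput and 2984 to 5206 CPM in cauda, and what part of other differences moves with it was not tested.

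Markers of other cells in the tissue are given for the whole of each list. Over all tested genes, 27.2% were called higher in caput and 27.5% in cauda. Smooth muscle markers were higher in cauda for 13 of 14, with a summed level of 2769 to 3019 CPM in caput and 4386 to 7939 CPM in cauda (median log2 change -2.03). Myh11, smooth muscle myosin, had 277, 329 and 200.3 CPM in caput, against 737, 853 and 1916 CPM in cauda (log2 change -2.12, SE 0.39, adjusted p = 4.4e-04). Acta2, smooth muscle actin, averaged 316 ± 53.6 CPM in caput and 1216 ± 248.6 CPM in cauda. The exception was Actg2, enteric smooth muscle actin, with 1209.7, 1155 and 1363 CPM in caput, against 140.1, 201 and 275 CPM in cauda (log2 change 2.6, SE 0.28, adjusted p = 3.7e-06). Of 16 fibroblast and matrix genes, 2 were higher in caput, 11 in cauda and 3 were not called, with summed levels of 1219.9 to 1539 CPM in caput and 1900.1 to 2265 CPM in cauda. Dcn, decorin, averaged 188 ± 40.95 CPM in caput and 604 ± 89.1 CPM in cauda. Pdgfra, a fibroblast receptor, averaged 349 ± 25.2 CPM in caput and 55.1 ± 13.1 CPM in cauda, against the direction of the list. The 2 caput calls, Pdgfra and Postn, fell to 1 with upper quartile scaling and without any 1 of caput replicates 1 and 2 and cauda replicates 1 to 3. What these cells contributed to the cauda differences was not tested.

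Sperm and male germ cell transcripts were higher in cauda for 18 of 21 tested and in caput for 0, with a summed level of 241 to 271 CPM in caput and 869.5 to 1284 CPM in cauda. Prm2, which packs sperm DNA, had 22.6, 31.5 and 27.2 CPM in caput, against 139, 253 and 156 CPM in cauda (log2 change -2.74, SE 0.22, adjusted p = 1.7e-07). Smcp, a protein of the sperm mitochondrial sheath, had 33.8, 43.04 and 39.3 CPM in caput, against 212, 309 and 204.97 CPM in cauda (log2 change -2.64, SE 0.17, adjusted p = 1.6e-08). Odf1, of the outer dense fibres of the tail, had 19.9, 16.2 and 18.2 CPM in caput, against 137, 188 and 126 CPM in cauda (log2 change -3.05, SE 0.18, adjusted p = 6.7e-09). Every cauda library exceeded every caput library for these 3 genes. Of 5 tested seminal vesicle and accessory gland markers (12 in the file), 4 were higher in cauda, a count that was 8 with no filter on low counts. Members at 0 in caput could pass the filter only through other segments and could be called in no other direction. The summed level was 7.17 to 10.03 CPM in caput and 197 to 262 CPM in cauda. Svs1 had 0 CPM in every caput library, against 169, 235.6 and 200.3 CPM in cauda, at least 664-fold higher in cauda. Svs4, a major seminal vesicle protein, had 0 CPM in every caput library, against 6.83, 6.204 and 5.97 CPM in cauda, and Svs2 was likewise at 0 in every caput library, with a cauda level of 3.24 ± 0.352 CPM. Their part in the cauda results was not tested.

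Ciliated cell genes went the other way. Cilia are found on cells of the efferent ducts, which join the testis to the caput. Of 17 tested (18 in the file), 13 were higher in caput, 1 in cauda and 3 were not called, with summed levels of 232 to 257 CPM in caput and 96.2 to 114 CPM in cauda. Foxj1, the factor that directs motile cilia, had 36.5, 30.3 and 17.9 CPM in caput, against 0.683, 0.801 and 0.663 CPM in cauda (log2 change 5.25, SE 0.34, adjusted p = 2.6e-08). The axonemal gene Dnah5 had 12.7 ± 3.13 CPM in caput and 0.181 ± 0.172 CPM in cauda, with a fitted change of 5.96, or 6.74 without cauda replicate 1. Ccno, a cyclin-like gene of multiciliated cells, had 117 ± 5.58 CPM in caput and 57.9 ± 4.52 CPM in cauda. The cauda call was Tekt4, a tektin that sperm tails also hold, and without cauda replicate 1 the cauda count was 2.

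Among resident cells of the epithelium, clear cell markers were split with 2 of 8 higher in caput and 4 in cauda. Those shares, 25% and 50%, stand against 27.2% and 27.5% of all tested genes. Foxi1, the factor that directs these proton-secreting cells, had 111 ± 6.14 CPM in caput and 116 ± 6.66 CPM in cauda (adjusted p = 0.50). Basal cell markers gave 3 of 10 in caput and 2 in cauda, shares of 30% and 20% that were near those of all tested genes. The log2 change was -0.23 for the keratin Krt14 (adjusted p = 0.20) and 1.2 for the factor Trp63 (adjusted p = 2.0e-07). Summed levels were 464 to 497 CPM in caput and 442 to 484 CPM in cauda for clear cells and 473 to 519.9 CPM in caput and 463 to 506 CPM in cauda for basal cells.

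Endothelial markers were higher in caput for 4 of 11 and in cauda for 1, with summed levels of 164 to 253 CPM in caput and 114 to 183 CPM in cauda; Kdr, the main receptor for vascular endothelial growth factor, had 31.7, 25.9 and 20.1 CPM in caput, against 8.1997, 2.802 and 7.95 CPM in cauda (log2 change 1.995, SE 0.46, adjusted p = 0.0026). Macrophage and dendritic markers were higher in caput for 5 of 17 and in cauda for 1, or 2 without cauda replicate 2. The other 11 were not called, and the list's median log2 change was -0.0035. The caput share, 29.4%, was near the 27.2% of all tested genes, so this count does not set these markers apart in caput. Summed levels were 354 to 381 CPM in caput and 269.6 to 359 CPM in cauda. Cx3cr1, which marks the phagocytes that line the duct, averaged 31.8 ± 1.72 CPM in caput and 13.7 ± 0.857 CPM in cauda. Itgam, the 1 member called higher in cauda, averaged 11.8 ± 1.94 CPM in caput and 30.9 ± 1.70 CPM in cauda (log2 change -1.39, SE 0.16, adjusted p = 8.9e-06). Of 13 lymphocyte markers 1 was tested, Cd3e (log2 change 0.63, adjusted p = 0.29). Of 6 tested nerve and Schwann cell markers (11 in the file), 1 was higher in caput, by at least 4-fold, 3 in cauda and 2 were not called. Th, tyrosine hydroxylase, the first enzyme of catecholamine synthesis, was among the cauda members. It had 0 CPM in every caput library, against 48.5, 41.6 and 25.4 CPM in cauda, at least 127-fold higher in cauda. Of 11 tested proliferation genes, 1 was called higher in caput and 2 in cauda. That caput count was 0 with DESeq2 and without caput replicate 2 or 3 or cauda replicate 1 or 2. The cauda count was 4 without caput replicate 3. Of 4 adipocyte genes tested, 2 were called higher in caput and 1 in cauda. Their caput count was 1 with upper quartile scaling and when at least 10 counts were needed in 3 libraries of a segment. It was also 1 without any 1 of caput replicates 1 to 3 and cauda replicates 1 and 2. The 1 erythrocyte gene tested, Alas2 (log2 change -1.03), was called higher in cauda, and not without caput replicate 3.

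**Figure D5:**
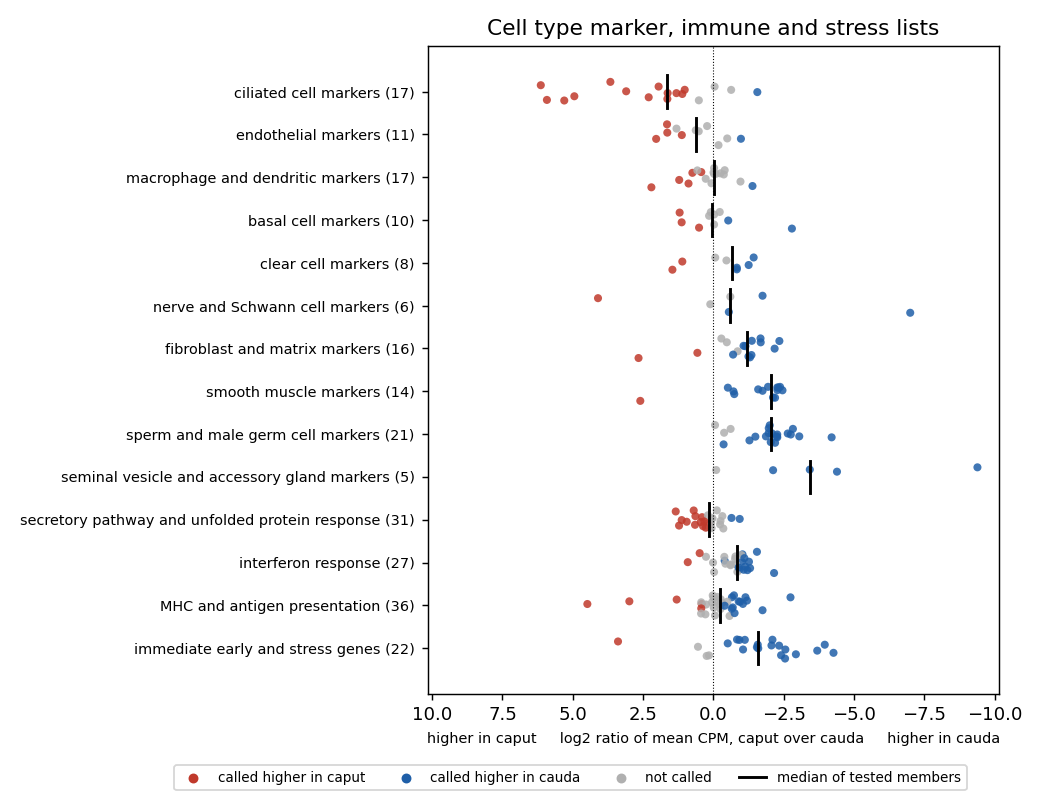
Log2 ratio of mean CPM, caput over cauda (horizontal axis, caput side on the left), for every tested marker of the cell types listed on the vertical axis; each point is 1 gene, coloured by its call, with means held at no less than 3 counts over a segment. Smooth muscle and sperm markers lie mostly on the cauda side and ciliated cell markers mostly on the caput side.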

How the data were processed

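RNA of flash frozen epididymis segments was made into strand-marked libraries with a KAPA mRNA kit and read as single ends of 36 bases on an Illumina GAIIx, per the labels' protocols. Bowtie2 2.2.0, CASAVA 1.8.2 and FastQC 0.11.2 and the build mm10 are listed, per the submitters' processing notes. How reads were counted (tool, annotation, strand and multiple matches) is not given in the sources used here.

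Per the file headers, the authors deposited raw counts for each gene symbol, not normalized. RPKM values were deposited beside them, per the file headers, and these were used only to rank and compare levels between genes.

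Counts of all 9 libraries were fitted in R 4.3.3 with edgeR 4.0.16 (filterByExpr, TMM, glmQLFit and glmQLFTest, contrast caput minus cauda, two-sided), with Benjamini-Hochberg adjustment over the 14168 tested genes; 9891 were not tested. The biological coefficient of variation was 10.1%. The fit was tested on simulated data. Far fewer genes changed there than were called here, so that test does not bear on scaling under such broad differences. CPM are on TMM-scaled library sizes. Members of 47 gene lists were counted by call, with the list's median log2 change, given also with genes at 0 held at their bound where that changed it. Members and lists were chosen with earlier results of these data known. The number given as in the file counts the list members found there, which need not be every gene of a family. Named genes were the 10 per end with the greatest RPKM difference, the 8 per end with the greatest floored ratio, up to 3 per list and direction with the greatest change, and the member with the highest level at each end; other list members named, and the uncalled ones, were chosen after their values were seen. Some genes that this rule names are not reported here. Of the file's symbols, 22681 matched the GENCODE M21 annotation of mm10 directly and 993 by an older name. Promoters are RefSeq's (GRCm38.p6). Overlapping exons and shared 36-base windows were computed from the same annotation.

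Replicate numbers were not taken as a pairing, since the labels give them no shared source and same-numbered deviations of caput and cauda from the segment means correlated at 0.163, 0.00831 and 0.168, not all over 0.1. No 2 libraries were alike within counting noise. Alternatives were other scalings and filters, DESeq2 1.42.0, limma voom (limma 3.58.1), the 6 libraries alone, a replicate block, Rn45s left out, and each library left out.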

Additional observations from a re-analysis of the deposited data

How the results depend on the processing

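All 4 counts of called genes stayed within 1.5 times their value under the 15 alternatives. Genes higher in caput numbered 3437 (DESeq2) to 4091 (replicate block), and genes higher in cauda 3393 (DESeq2) to 4244 (no filter on low counts). At least 4-fold, the counts were 804 to 1140 in caput and 680 to 1043 in cauda. With 1 library left out, they were 3462 to 3764 and 3490 to 3772, and at least 4-fold 912 to 948 and 767 to 839. No scaling moved the median log2 change of all tested genes by more than 0.0302, the shift under upper quartile scaling. Of 7745 calls, 6819 were also made by DESeq2 and 7572 by limma voom.

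With the replicate number as a block, 4091 genes were higher in caput and 3998 in cauda, 891 and 760 by at least 4-fold, and 7676 of the 7745 calls were shared. The numbers share no stated source. In deviations from the segment means, each caput library correlated best with the cauda library of its own number, for number 2 at only 0.00831. Deviations within a segment are not independent of each other. The library values themselves did not follow the numbers: caput replicate 2 correlated at 0.755 with cauda replicate 2 and 0.759 with cauda replicate 3. The design gives no pairing.

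Of 227 named genes that were tested, all kept their direction under the 15 alternatives and 220 also their side of the threshold. Itgam and Fgf9 were not among the 227. Of 94 list counts, 73 stayed within 1.5 times in all of them. Depth limits the genes with 0 to 3 counts at 1 end: 1 count stands for 0.166 to 0.338 CPM, so their folds are bounds or wide intervals. The cause of these moves was not tested.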

Other observations

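Several runs of neighbouring genes were called in the same direction and by at least 4-fold, and these were picked out after their values were seen. Neighbours are in the order of tested genes, so genes that were not tested were passed over. On chromosome 7, between 43966751 and 44229618, 7 kallikrein genes in a row, which encode secreted serine proteases, were higher in cauda: Klk1b1, Klk1b27, Klk1b21, Klk1b24, Klk1b4, Klk1b5 and Klk1. Klk1b27 had 0.338, 0 and 0.264 CPM in caput, against 38.6, 56.2 and 52.7 CPM in cauda (log2 change -7.75, SE 0.37, adjusted p = 1.1e-09), and all 3 cauda libraries exceeded the caput libraries. Of its 36-base windows, 33.8% occur in other genes of the cluster, mainly Klk1, so the division of reads among them is uncertain. Without 1 library the fitted changes of the low members moved: Klk1b21 was -5.67, or -7.96 without caput replicate 2, Klk1b24 was -5.28, or -7.57 without caput replicate 1, and Klk1b5 was -3.38, or -4.51 without caput replicate 3.

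On the X chromosome, 5 neighbouring Armcx genes, which encode armadillo-repeat proteins, were higher in caput: Armcx4, Armcx1, Armcx6, Armcx3 and Armcx2, with 29.9% of the windows of Armcx3 in other genes. Their log2 changes ran from 4.21 for Armcx2 to 6.49 for Armcx6. Armcx6 had 135, 126 and 129 CPM in caput, against 1.88, 0.801 and 1.49 CPM in cauda (log2 change 6.49, SE 0.17, adjusted p = 2.8e-12).

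Khdc1a, Khdc1c and Khdc1b, a KH-domain family on chromosome 1, were counted in cauda and not in caput. Khdc1a had 0 CPM in every caput library, against 106, 92.1 and 106 CPM in cauda, at least 338-fold higher in cauda, with 53.8% of its windows also in Khdc1c or other genes. On chromosome 13, the aldo-keto reductases Akr1c13, Akr1c19 and Akr1c12, which reduce steroids and aldehydes, were higher in cauda, with 16.3 ± 0.405 CPM in caput and 336 ± 40.7 CPM in cauda for Akr1c19; 36.3% of the windows of Akr1c12 and 31.1% of those of Akr1c13 are shared, mainly with each other.

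Catecholamine enzymes were found at opposite ends. Besides Th and Pnmt, which were higher in cauda, Ddc, which makes dopamine, averaged 8.16 ± 0.543 CPM in caput and 0.942 ± 0.221 CPM in cauda and was higher in caput (log2 change 3.07, SE 0.30, adjusted p = 1.4e-06). Dbh, which turns dopamine into noradrenaline, did not pass the filter, with 0.216 ± 0.188 CPM in caput and 0.346 ± 0.149 CPM in cauda.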
